A study of Mus musculus with 12 samples.

Results

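The genes described here encode the proteins of the cytosolic ribosome, the particle that translates nuclear messages. They were chosen by gene symbol, as protein-coding genes named Rpl or Rps with a number, together with Rpsa, Rplp0, Rplp1 and Rplp2. Of 86 protein-coding genes with such symbols, 81 reached at least 1 FPKM (fragments per kilobase of gene, scaled for depth, the deposited unit) in at least 3 of the 12 libraries and are called members below, out of 11335 genes that reached that level. The members comprise 31 proteins of the small subunit, 45 of the large subunit and its stalk, 4 paralogs (Rps27l, Rpl22l1, Rpl7l1 and Rps27rt) and Rps19bp1. Rps19bp1 matches the symbol rule, but its product binds a ribosomal protein and is not one. The 10 genes named Rps6k, which encode kinases, were left out. The rule itself used no expression difference, although it was set with earlier results of these data known.

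RNA came from wild-type mouse bone-marrow cells in 4 groups of 3 libraries. Macrophages were expanded with CMG, a source of the growth factor M-CSF, and received no RANKL. Osteoclasts, the bone-resorbing cells of the same lineage, were grown from those macrophages with CMG and RANKL, the cytokine that drives their formation, at 100 ng/mL per the source label. On day 5, cells of each kind were left untreated or given 100 ng/mL lipopolysaccharide (LPS), a bacterial wall component sensed by Toll-like receptor signalling, for 3 h. The labels do not say that replicates came from separate animals or cultures, so each p-value measures only the spread between these libraries, which may be technical.

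A ribosome holds each of its proteins in a fixed stoichiometry, and the genes for them are among the most highly transcribed in most cells. Their messages carry a terminal oligopyrimidine (TOP) tract, a run of pyrimidines beginning with C at the start of transcription, through which the kinase mTORC1 and the RNA-binding protein LARP1 control their translation and stability. Measurements of RNA level therefore describe the supply of these messages and not the rate at which they are read.

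The starts of the genes are shown first, because the TOP tract is a feature the symbol rule did not use. RefSeq start sites on GRCm38.p6 were given for 61 of the 81 members. Each stretch below runs 5′ to 3′ along the gene's strand over 30 bases, 15 before the RefSeq start and 15 from it on, with capitals marking the pyrimidine run that begins with C nearest to the start. The first 6 hold such a run of at least 5 bases within 10 bases of the start; the last 3 do not, and they encode members whose level differences are described below.
Rps6: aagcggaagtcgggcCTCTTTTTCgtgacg
Rps9: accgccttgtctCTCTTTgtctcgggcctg
Rpl35: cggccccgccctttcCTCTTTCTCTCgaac
Rps27: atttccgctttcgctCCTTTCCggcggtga
Rps27rt: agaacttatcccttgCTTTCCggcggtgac
Rpl22l1: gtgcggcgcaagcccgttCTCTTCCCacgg
Rpl4: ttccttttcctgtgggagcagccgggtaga
Rps3: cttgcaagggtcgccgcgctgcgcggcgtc
Rplp0: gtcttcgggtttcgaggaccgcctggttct

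These stretches lie at chr4:86857353-86857382 on the minus strand for Rps6, chr7:3704026-3704055 on the plus strand for Rps9 and chr2:39005117-39005146 on the minus strand for Rpl35. Those of Rps27 and its retrocopy Rps27rt lie at chr3:90213634-90213663 and chr9:114982725-114982754, both on the minus strand. That of Rpl22l1 lies at chr3:28805493-28805522 on the plus strand. Those of Rpl4, Rps3 and Rplp0 lie at chr9:64173372-64173401 on the plus strand, chr7:99483695-99483724 on the minus strand and chr5:115559452-115559481 on the plus strand. RefSeq and GENCODE place some starts at different bases, by more than 30 for Rps6, Rps9, Rpl35 and Rpl22l1. An unmarked stretch therefore says only that no such run begins within 10 bases of the RefSeq start. In Rpl4 a pyrimidine run further upstream holds the GENCODE start, at base 64173375.

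A run counted from a C within 10 bases of a RefSeq start was present for 37 of the 61 members, or 60.7% (95% exact Clopper-Pearson interval 47.3% to 72.9%). Runs that were the end of a longer pyrimidine run counted too, in all shares given here. Among 17430 other protein-coding genes the share was 34.8%. Within 3 bases the shares were 42.6% and 13.1%, and within 20 bases they were 80.3% and 54%. A gene with several RefSeq starts counted if any of them qualified, here and for the letters below. Over 250 bases before and 50 after the start, on both strands, the letters CCGGAA, the core bound by ETS factors such as GABP, were found in 57.4% of member promoters and 20.8% of the others. The letters AAGATGG, the core bound by YY1, were found in 16.4% and 7.15%, and the TATA box letters TATAAA in 11.5% and 14.8%. Such matches describe the sequence and are not evidence of binding.

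**Figure D1:**
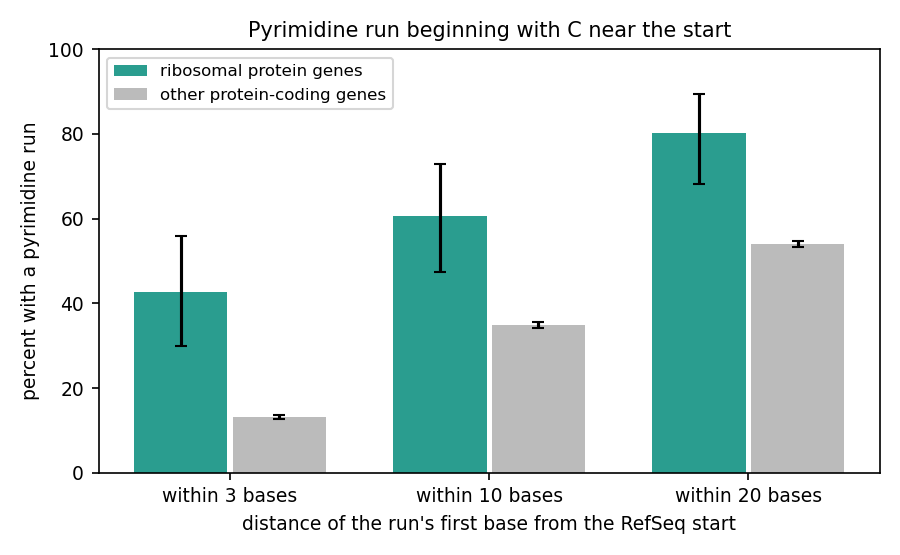
Bars give the percent of genes with a pyrimidine run of at least 5 bases beginning with C at any of their RefSeq starts. They cover 61 members, labelled ribosomal protein genes and including Rps19bp1, and 17430 other protein-coding genes, at 3 distances of the run's first base from the start. Any base, also a pyrimidine, could precede that first base. Error bars are exact 95% binomial intervals. The members sit at 42.6%, 60.7% and 80.3%, the others at 13.1%, 34.8% and 54%.

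The libraries held 15651736 to 20281414 reads assigned to genes. The cell labels were checked on marker genes: 8 osteoclast markers, among them Ctsk and Acp5, summed to 8.26 to 23.4 FPKM in macrophages and to 28985 to 31979 FPKM in osteoclasts. The 7 macrophage markers summed to 1693 to 2461 FPKM in all libraries. Of the other cell types listed, 3 stromal markers (Col1a1, Col1a2 and Pdgfrb) summed to 25.1 to 35.3 FPKM in macrophages against 0.0638 to 0.702 FPKM in osteoclasts. Neutrophil, B cell, T cell and erythroid markers summed to at most 4.1 FPKM in any library, with Cd3d and Hbb-bt at 0 throughout. The stromal markers move with cell type, and their part in the differences between cell types was not tested. The first LPS-treated osteoclast library stood apart: it held the most reads, and for 75 of the 81 members it had the highest FPKM of all 12 libraries. The share of all genes that were highest in that library is not given, so the count does not set the members apart from other genes.

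The level of the ribosomal protein genes as a group depended on what it was measured against. The deposited values are scaled so that the typical gene has equal levels in all libraries, and they do not sum to a constant. The members summed to 15808, 15910 and 15564 FPKM in untreated macrophages and to 18107, 19225 and 19287 FPKM in LPS-treated macrophages. In untreated osteoclasts they summed to 18734, 19462 and 18524 FPKM, and in LPS-treated osteoclasts to 24477, 20371 and 19550 FPKM. Untreated macrophages were the lowest on this scale without overlap with any other group, and LPS-treated macrophages overlapped untreated osteoclasts.

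As a share of all FPKM in the library the order was another one. The members took 6.13%, 6.08% and 6.08% in untreated macrophages and 4.46%, 4.81% and 4.72% after LPS. They took 5.43%, 5.58% and 5.42% in untreated osteoclasts and 6.48%, 5.75% and 5.48% in LPS-treated osteoclasts. Here untreated macrophages were above LPS-treated macrophages and untreated osteoclasts without overlap. The sum of all FPKM was 258473 ± 2897 (SD, n = 3) in untreated and 405027 ± 4727 (SD, n = 3) in LPS-treated macrophages, which is where both scales part. In osteoclasts it was 345355 ± 3381 (SD, n = 3) without and 362906 ± 12820 (SD, n = 3) with LPS. Mitochondrially encoded genes took 1.27% to 1.62% of reads in macrophages and 5.16% to 6.18% in osteoclasts. Over nuclear protein-coding genes alone, the members' share was 6.93% ± 0.0935 in untreated macrophages and 7.03% ± 0.14 in untreated osteoclasts (SD, n = 3 each), so that the difference between cell types was no larger than the spread. On that denominator LPS-treated macrophages had 5.22% ± 0.169 and LPS-treated osteoclasts 7.53% ± 0.703 (SD, n = 3 each). In bulk RNA, fewer cells of a type and less RNA per cell cannot be told apart.

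**Figure D2:**
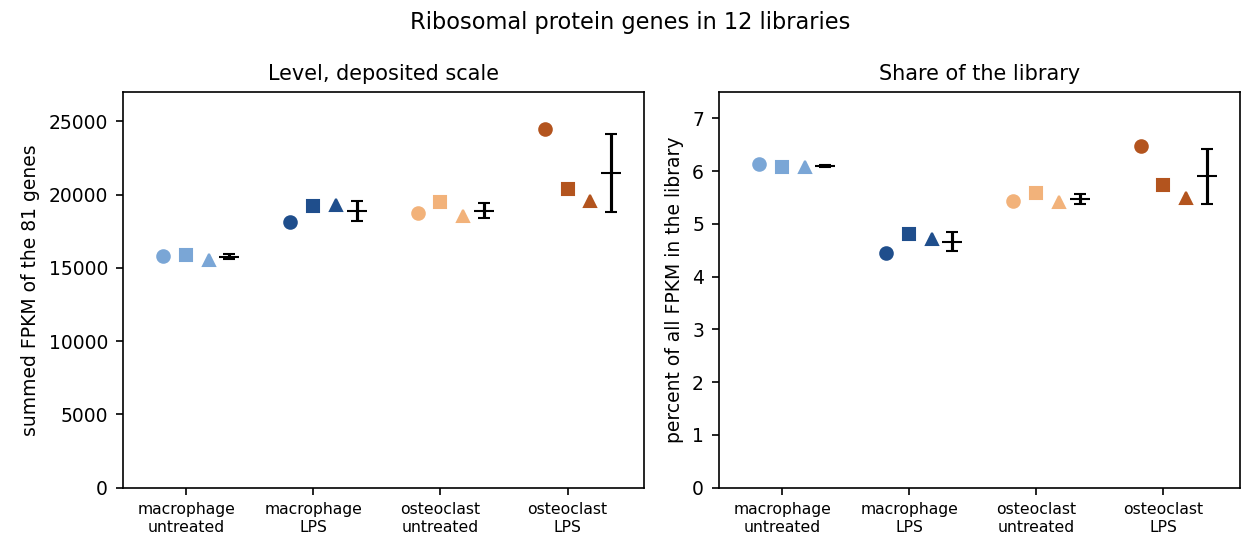
Points show each library (circle, square and triangle for replicates 1, 2 and 3) with the mean and SD of each group of 3 in black. Left, the summed FPKM of the 81 genes; right, their percent of all FPKM in the library. LPS-treated macrophages lie above untreated ones on the left (18107 to 19287 against 15564 to 15910 FPKM) and below them on the right (4.46% to 4.81% against 6.08% to 6.13%).

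Levels of single members spanned a wide range. Rplp1, a stalk protein, was the highest at a mean of 1428 FPKM over the 12 libraries, followed by the stalk protein Rplp0 at 706 FPKM and the large-subunit protein Rpl17 at 638 FPKM. The median member had 201 FPKM, and 63 of the 81 exceeded 100 FPKM. These values divide by the length of all annotated exons of a gene. Divided by the length of the principal transcript instead, Rplp1 stayed first, Rplp0 came at rank 4 and Rpl17 at rank 21, so that the order among genes is only approximate. Many members have processed pseudogenes in the genome: for 47 of the 81, over 50% of the 50-base words in the principal transcript also occur in another annotated gene, and the treatment of reads that fit several places is not given in the sources used here.

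The lowest members were Rps10 at 0.815 FPKM, Rps27rt at 4.71 FPKM and Rpl13a at 10.9 FPKM. Of the 50-base words in the principal transcript of Rps10, 90.6% also lie in an overlapping annotated gene on the same strand, and for Rpl13a the share is 57.4%. Those overlapping genes are at 0 FPKM in all 12 libraries, so the values of Rps10 and Rpl13a are uncertain as measures of the genes. Rps10 was the member nearest to the inclusion level, reached it in all 3 untreated macrophage libraries and in 1 untreated osteoclast library, and counted 16 to 62 reads per library. Rpl39l at 0.844 FPKM, Rpl24 at 0.829 FPKM, Rpl36al and Rpl3l fell just or well outside it, and Rpl10l was at 0 in every library. Rpl10l, Rpl3l and Rpl39l are paralogs known for expression in testis or muscle. Of the words of Rpl24 and Rpl36al, 69.4% and 59.5% lie in overlapping genes that are at 0 FPKM too.

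With LPS, nearly all ribosomal protein genes of macrophages moved together, and the direction depended on the scale. On the deposited scale 65 of the 81 members rose and 1 fell, against 36.8% of all 11335 genes called higher and 33.1% called lower (limma on log2(FPKM + 1), Benjamini-Hochberg adjusted p under 0.05 over all genes). The median log2 difference of the members was 0.26, a 1.2-fold change, beside 0.02 for all genes tested. With every library rescaled to the same total (TPM), 0 members rose and 79 fell, with a median of -0.38, against 16% of all genes called higher and 70.1% called lower and a median of -0.49. On the TPM scale 70 of the 81 members lay above the median gene. After quantile normalization 1 member was higher and 78 lower, beside 26.9% and 45.8% of all genes. The members' median there was -0.56 against -0.14 for all genes, and 2 of the 81 lay above the median gene. With a smooth trend on gene length removed from each library, 5 rose and 5 fell, beside 27.4% and 45.8% of all genes. The median was then 0.05 against -0.14, and 76 of the 81 lay above the median gene. Both the direction of the group and its place relative to the median gene therefore depended on the scaling, and the single-gene differences that follow are on the deposited scale.

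Among the structural members, Rplp0, the protein that anchors the stalk to the ribosome, had 549, 578 and 566 FPKM untreated and 667, 688 and 682 FPKM with LPS. Its groups did not overlap, and it rose by 0.27 ± 0.06 on the log2 scale (SE; limma adjusted p = 0.00116). Rps6, the subunit protein phosphorylated by S6 kinase, went from 194, 198 and 199 FPKM to 225, 245 and 244 FPKM, a log2 difference of 0.27 ± 0.06 (SE; limma adjusted p = 0.00184). Rpl4, a core protein of the large subunit, went from 354, 358 and 355 FPKM to 409, 433 and 437 FPKM, a log2 difference of 0.26 ± 0.04 (SE; limma adjusted p = 0.000164). All 3 changed by close to the group's median of 0.26, and all 3 fell on the TPM and quantile scales.

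The members called with the largest differences were Rps27rt, Rps9 and Rps20. Rps9, a protein of the small subunit, had 156, 152 and 150 FPKM untreated and 206, 207 and 212 FPKM with LPS, a log2 difference of 0.45 ± 0.06 (SE; limma adjusted p = 1.88e-05). Rps20 had 62.9, 61.3 and 58 FPKM untreated and 78.4, 80.9 and 85.1 FPKM with LPS, a log2 difference of 0.42 ± 0.09 (SE; limma adjusted p = 0.00134). Neither overlapped between groups. Rps27rt, a retrocopy of Rps27, counted 24 to 50 reads in these libraries, shares 91.1% of its words with other genes, and had a log2 difference of 0.59 ± 0.23 (SE; limma adjusted p = 0.0362). Its call was lost without any of the 3 untreated macrophage libraries or the second LPS-treated one, with a limma adjusted p of up to 0.161, and with no filter on low values.

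The smallest called rise was that of Rpl14 at 0.16 ± 0.07 (SE; limma adjusted p = 0.0438). Leaving out single libraries ended the call of Rpl14 in 8 of 12 cases (any untreated library of either cell type, or the second or the third LPS-treated macrophage library; limma adjusted p up to 0.108). It was also lost with a replicate block, with no filter and with no variance trend. Rps10 alone was called lower, at -0.37 ± 0.12 (SE; limma adjusted p = 0.0177), with 1.06, 1.14 and 1.17 FPKM untreated and 0.542, 0.812 and 0.585 FPKM with LPS. It entered the members through the untreated group, and its call was lost without the first or the third LPS-treated macrophage library (limma adjusted p up to 0.0589) and after quantile normalization, at -0.26. Rpl13a, whose protein is known to be released from the ribosome to silence inflammatory messages, had 7.16, 6.66 and 6.18 FPKM untreated and 6, 5.29 and 6.77 FPKM with LPS. Its groups overlapped, with a log2 difference of -0.13 ± 0.07 (SE; limma adjusted p = 0.119). It was called lower on the TPM scale, at -0.69, after quantile normalization, at -0.22, and with the length trend removed, at -0.32.

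Differences among members do not depend on a library-wide scale factor, and they were tested after centring each library on its median member. In macrophages given LPS, 64 of the 81 members stayed within 0.1 of the median member on the log2 scale. On the centred scale 1 member was called higher and 9 lower, beside 20% and 47.5% of all genes. The 9 include Rps10, which entered the members through the untreated group, so its lower call is no independent result. Rps9 was the 1 called higher, at 0.17 ± 0.06 (SE; limma adjusted p = 0.0245). Rpl22, an RNA-binding protein of the large subunit that is dispensable for translation in many cells, had 49.4, 49 and 49.6 FPKM untreated and 48, 48.3 and 52.7 FPKM with LPS, and was lower than the median member by -0.26 ± 0.07 (SE; limma adjusted p = 0.00306). Rpl3 and Rps3 were lower by -0.17 ± 0.07 and -0.15 ± 0.06 (SE; limma adjusted p = 0.0274 and 0.0454). Rpl3 shapes the peptidyl transferase centre, and Rps3 sits at the entrance of the message channel.

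**Figure D3:**
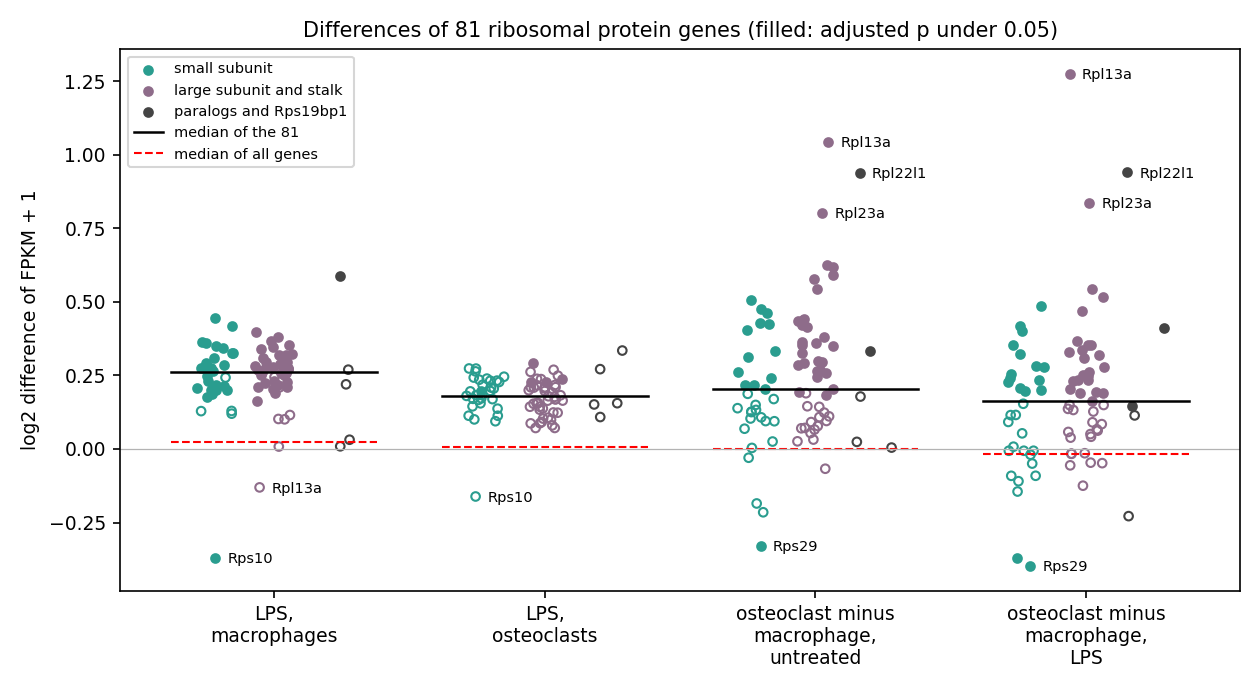
Each point is a member's log2 difference of FPKM + 1 in a comparison, filled where the adjusted p was under 0.05 and coloured by subunit; black lines are the members' median (0.26, 0.18, 0.20 and 0.16 from left to right) and red dashed lines the median of all 11335 genes. Most LPS differences lie near their median, with full ranges of -0.37 to 0.59 in macrophages and -0.16 to 0.33 in osteoclasts. Those between cell types spread from -0.33 to 1.04 untreated and from -0.40 to 1.27 with LPS.

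In osteoclasts, LPS moved few members past the test. On the deposited scale 5 of the 81 were called higher and 0 lower, beside 11.1% and 6.59% of all genes (limma). At an unadjusted p under 0.05, 51 were higher and 0 lower, with no share of all genes given at that threshold. The voom fit on read counts recovered from the FPKM steps called 42 higher and 0 lower, beside 12.9% and 8.32% of all genes. The members' median log2 difference was 0.18, a 1.13-fold change, against 0.01 for all genes, and 80 of the 81 differences were above 0. Without the first LPS-treated osteoclast library the median was 0.08 and limma called 0 members in either direction. The count of members called higher ranged from 0 to 43 as single libraries were left out, with 43 when the third LPS-treated osteoclast library was the one left out. Only without the first LPS-treated macrophage library, at 4, was it within 1.5 times of 5. No share of all genes is given for these fits of LPS in osteoclasts. The mitochondrial share of reads of the first LPS-treated osteoclast library, 6.18%, was also the highest of the 12, and the part of this in the result was not tested. The median stayed above 0 on the TPM scale, at 0.11, and after quantile normalization, at 0.07.

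Among the members called were Rpl36, Rpl23a, Rpl27 and Rpl38. Rpl36 had 431, 467 and 411 FPKM untreated and 614, 507 and 487 FPKM with LPS, a log2 difference of 0.29 ± 0.09 (SE; limma adjusted p = 0.0385). Rpl38, a small protein at the ribosome's surface known for its part in the translation of Hox messages, had 213, 232 and 208 FPKM untreated and 286, 239 and 241 FPKM with LPS, a log2 difference of 0.23 ± 0.07 (SE; limma adjusted p = 0.0393). In both genes the groups did not overlap, and the first LPS library was the highest. The calls of Rpl36, Rpl23a, Rpl27 and Rpl38 were each lost without that library, and in 5 to 10 of the 12 cases of leaving out 1 library (limma adjusted p up to 0.14). All 4 were lost with no filter and with only the groups compared, and those of Rpl23a, Rpl27 and Rpl38 also with a replicate block and with no variance trend. Rpl27 and Rpl23a had log2 differences of 0.23 ± 0.07 and 0.24 ± 0.07 (SE; limma adjusted p = 0.0389 and 0.0491). Rplp0 had 750, 786 and 758 FPKM untreated and 896, 805 and 749 FPKM with LPS, with overlapping groups and a log2 difference of 0.09 ± 0.06 (SE; limma adjusted p = 0.307). Rpl4 had a log2 difference of 0.07 ± 0.04 (SE; limma adjusted p = 0.293). Centred on the median member, 75 of the 81 lay within 0.1.

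The difference between the LPS effects of both cell types was tested directly, as the effect in osteoclasts minus that in macrophages. On the deposited scale 0 of the 81 members were called above 0 and 2 below, beside 26.6% and 30% of all genes (limma). At an unadjusted p under 0.05 there were 1 above and 5 below, and voom called 0 above and 6 below. No share of all genes is given for these counts. The median was -0.08 against -0.01 for all genes. Without the first LPS-treated osteoclast library 43 members were called below 0 and 0 above, with a median of -0.19, beside 30.5% and 25.5% of all genes. On the TPM scale 80 members were called above 0 and 0 below, with a median of 0.50 against 0.45 for all genes, beside 63.8% and 14.4% of all genes. The 2 members called were Rps9, at -0.31 ± 0.08, and Rpl4, at -0.19 ± 0.06 (SE; limma adjusted p = 0.00605 and 0.0188), and both were above 0 on the TPM scale. The call of Rpl4 was lost without the third LPS-treated macrophage library (limma adjusted p = 0.0509) and with no filter. Rps9 had 170, 189 and 173 FPKM in untreated and 214, 189 and 184 FPKM in LPS-treated osteoclasts, groups that overlapped. Rpl13a had a difference of 0.23 ± 0.10 (SE; limma adjusted p = 0.0682). That difference was called on the TPM scale, at 0.73, after quantile normalization, at 0.24, and with the length trend removed, at 0.31. It was also called without the third untreated or the third LPS-treated macrophage library.

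**Figure D4:**
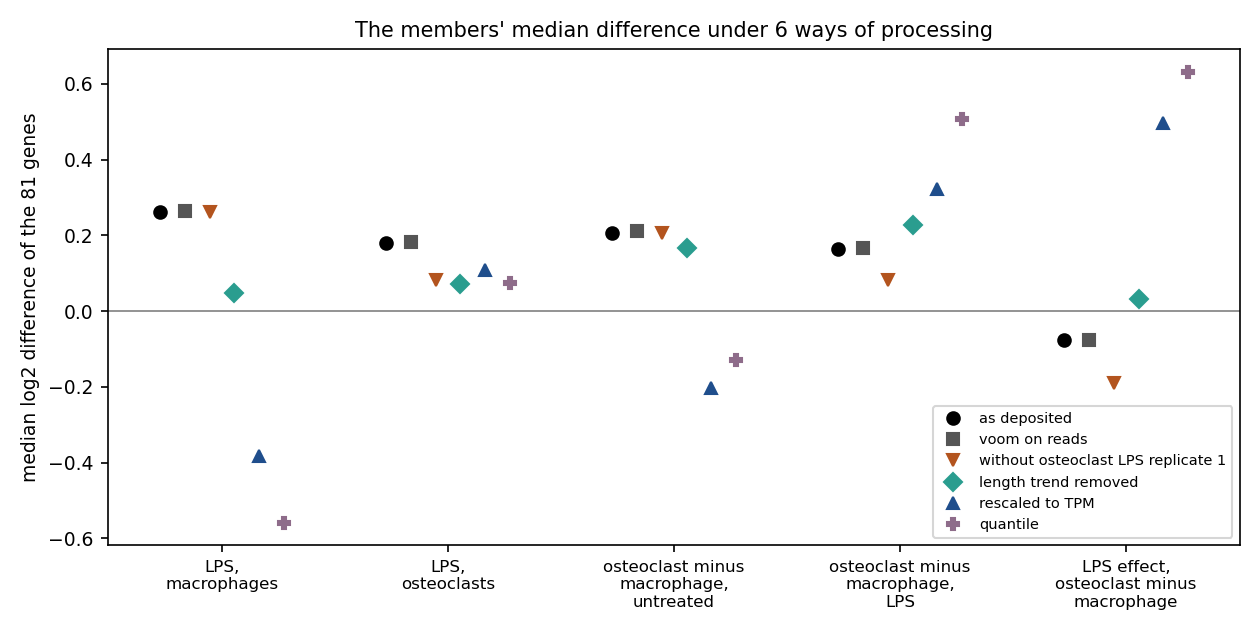
Each symbol is the median log2 difference of the 81 genes in a comparison under a way of processing: the deposited FPKM, voom on recovered reads, the fit without the first LPS-treated osteoclast library, removal of a trend on gene length, rescaling to TPM and quantile normalization. The sign changes between scalings for LPS in macrophages (0.26 to -0.56), untreated osteoclasts against macrophages (0.20 to -0.20) and the difference of LPS effects (-0.19 to 0.63), and stays above 0 for LPS in osteoclasts and for LPS-treated osteoclasts against macrophages.

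Untreated osteoclasts and macrophages were compared next, and here the members did not move as a block. On the deposited scale 44 of the 81 were higher in osteoclasts and 1 lower, beside 38.8% and 39% of all genes, with a median log2 difference of 0.20 against 0 for all genes (limma). On the TPM scale 8 were higher and 48 lower, with a median of -0.20 against -0.33, beside 24.5% and 57.1% of all genes. After quantile normalization 10 were higher and 39 lower, beside 40.4% and 38.1% of all genes. The median there was -0.13 against 0.03, and 19 of the 81 lay above the median gene. Large-subunit genes made up 28 of the 44 calls, out of 42, with a median of 0.28, and small-subunit genes 13, out of 31, with a median of 0.15. The ratio of the summed FPKM of small-subunit genes to that of large-subunit and stalk genes, which a library-wide scale factor does not change, was 0.657, 0.649 and 0.662 in untreated macrophages and 0.618, 0.608 and 0.618 in untreated osteoclasts. With LPS it was 0.646, 0.647 and 0.654 in macrophages and 0.624, 0.616 and 0.616 in osteoclasts. All 6 osteoclast libraries were below all 6 macrophage libraries. With the 3 stalk genes left out the ratio was 0.813 to 0.832 in macrophages and 0.759 to 0.781 in osteoclasts, again without overlap.

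Centred on the median member, 31 members were called higher and 5 lower in untreated osteoclasts, beside 28.7% and 41.2% of all genes. With LPS 39 were called higher and 5 lower, beside 35.4% and 41.8%. The comparisons share no library. The spread of each gene was estimated from all 12 libraries for both, so their calls are not independent. In the LPS-treated cells on the deposited scale 42 members were higher in osteoclasts and 2 lower, beside 40.9% and 43% of all genes, with a median of 0.16 against -0.02. On the TPM scale 65 were higher and 2 lower, with a median of 0.32 against 0.10, beside 45.9% and 37.9% of all genes. Without the first LPS-treated osteoclast library 33 were higher and 14 lower on the deposited scale, with a median of 0.08, beside 39.9% and 42.5% of all genes.

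The member furthest from the others was Rpl13a. It had 14.9, 15 and 14.5 FPKM in untreated and 16.4, 15.7 and 15.7 FPKM in LPS-treated osteoclasts, against 5.29 to 7.16 FPKM in the 6 macrophage libraries. The cell types did not overlap. The log2 difference was 1.04 ± 0.07 untreated and 1.27 ± 0.07 with LPS (SE; limma adjusted p = 3.55e-08 and 3.89e-09). Relative to the median member it was 0.91 ± 0.10 and 1.23 ± 0.10 (SE; limma adjusted p = 3.82e-07 and 5.12e-09). These values rest on 162 to 686 reads per library and on a gene model that overlaps another, as described above.

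Rpl22l1, the paralog of Rpl22 that can take its place in the ribosome and is repressed by it in other tissues, came next. It had 9.54, 8.85 and 7.59 FPKM in untreated and 10.2, 10.1 and 11.6 FPKM in LPS-treated macrophages. In osteoclasts it had 16.8, 18.6 and 17 FPKM untreated and 28.8, 16.5 and 20.2 FPKM with LPS, again without overlap between cell types. The log2 difference was 0.94 ± 0.15 untreated and 0.94 ± 0.15 with LPS (SE; limma adjusted p = 0.000117 and 9.85e-05). Rpl22 itself had 54.7, 55.7 and 53.4 FPKM in untreated osteoclasts, a log2 difference from macrophages of 0.14 ± 0.06 (SE; limma adjusted p = 0.0587). It was called higher among protein-coding genes only, with only the groups compared, with the length trend removed, with voom, and without the first or the third LPS-treated osteoclast library. It was -0.27 on the TPM scale. With LPS it had 70.6, 61 and 57.6 FPKM in osteoclasts and a log2 difference of 0.33 ± 0.06 (SE; limma adjusted p = 0.000377). The ratio of Rpl22l1 to Rpl22 in FPKM was 0.153 to 0.193 in untreated macrophages, 0.209 to 0.219 in LPS-treated macrophages, 0.307 to 0.333 in untreated osteoclasts and 0.270 to 0.408 in LPS-treated osteoclasts. The ratio ranges of the cell types did not overlap.

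The ratios of the other paralogs overlapped between cell types over all libraries. Within a treatment, the ranges did not overlap for Rps27l with LPS or for Rpl7l1 in untreated cells. The ratio of Rps27l, a p53-responsive paralog, to Rps27 was 0.571 to 0.627 in untreated macrophages and 0.620 to 0.652 in untreated osteoclasts, and with LPS it was 0.496 to 0.574 and 0.576 to 0.608. The ratio of Rpl7l1, a protein of ribosome assembly, to Rpl7 was 0.170 to 0.191 in untreated macrophages and 0.144 to 0.147 in untreated osteoclasts, and with LPS it was 0.135 to 0.156 and 0.128 to 0.149. With LPS, Rpl7l1 was called higher in osteoclasts, by 0.15 ± 0.05 (SE; limma adjusted p = 0.0175), although its groups overlapped; the call was lost without the first or second LPS-treated macrophage library or the first LPS-treated osteoclast library (limma adjusted p up to 0.0721), and with only the groups compared.

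Among the other large-subunit members, Rpl23a, a protein at the exit of the nascent chain, had 208, 213 and 203 FPKM in untreated macrophages and 359, 373 and 358 FPKM in untreated osteoclasts. With LPS it had 229, 245 and 244 FPKM in macrophages and 498, 405 and 390 FPKM in osteoclasts. Its log2 difference was 0.80 ± 0.07 untreated and 0.84 ± 0.07 with LPS (SE; limma adjusted p = 7.74e-07 and 4.17e-07). Of the annotated exon bases of Rpl23a, 59.7% overlap Tlcd1 on the opposite strand, which had 0.141 to 0.517 FPKM; whether the counting used strand is not given in the sources used here. Rpl4 was at 521, 520 and 514 FPKM in untreated osteoclasts, 0.54 ± 0.04 above macrophages on the log2 scale (SE; limma adjusted p = 1.61e-07). Rplp0 was 0.44 ± 0.06 higher (SE; limma adjusted p = 1.65e-05), but 0.0205 on the TPM scale, where it was not called, and -0.13 after quantile normalization. The smallest called rises were those of Rpl9 at 0.18 ± 0.07 and Rpl7a at 0.19 ± 0.06 (SE; limma adjusted p = 0.0306 and 0.0127). Both were below 0 on the TPM scale. The call of Rpl9 was lost without the second or the third untreated macrophage library or the first or the second untreated osteoclast library, and that of Rpl7a without the second untreated osteoclast library (limma adjusted p up to 0.0993 and 0.0513). That of Rpl9 was also lost with no filter.

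In the small subunit the members went both ways. Rps3, at 99.4, 101 and 96.4 FPKM in untreated macrophages and 134, 138 and 137 FPKM in untreated osteoclasts, was 0.46 ± 0.06 higher (SE; limma adjusted p = 8.86e-06). On the TPM and quantile scales its differences were 0.0479 and 0.0785 and were not called. Rps29, a zinc-binding protein of the small subunit's head, had 243, 236 and 210 FPKM in untreated macrophages and 177, 194 and 177 FPKM in untreated osteoclasts. It was lower by -0.33 ± 0.11 untreated and by -0.40 ± 0.11 with LPS (SE; limma adjusted p = 0.0202 and 0.00656). The untreated call was lost without the first or second untreated macrophage library or the first or the third untreated osteoclast library (limma adjusted p up to 0.0688), and with no filter. Rps20 was lower in LPS-treated osteoclasts, at 75.9, 58 and 56 FPKM against 78.4, 80.9 and 85.1 FPKM in macrophages, by -0.37 ± 0.09 (SE; limma adjusted p = 0.00227). After quantile normalization the differences with LPS were -0.15 for Rps29 and -0.0132 for Rps20, neither of them called. Relative to the median member, Rps29 was lower by -0.46 ± 0.07 untreated and -0.45 ± 0.07 with LPS, and Rps20 by -0.32 ± 0.07 and -0.42 ± 0.07 (SE; limma adjusted p = 1.35e-05, 1.67e-05, 0.000381 and 1.89e-05). In the large subunit, Rpl11, which with Rpl5 binds the p53 ligase Mdm2, was lower than the median member by -0.20 ± 0.06 and -0.17 ± 0.06 (SE; limma adjusted p = 0.00841 and 0.0184). In FPKM, Rpl11 had 110, 108 and 103 in untreated macrophages and 101, 104 and 101 in untreated osteoclasts, with overlapping groups. Rpl5, also of the large subunit, was higher in osteoclasts, at 95.2, 93.2 and 96.6 FPKM in untreated macrophages and 130, 130 and 126 FPKM in untreated osteoclasts.

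**Figure D5:**
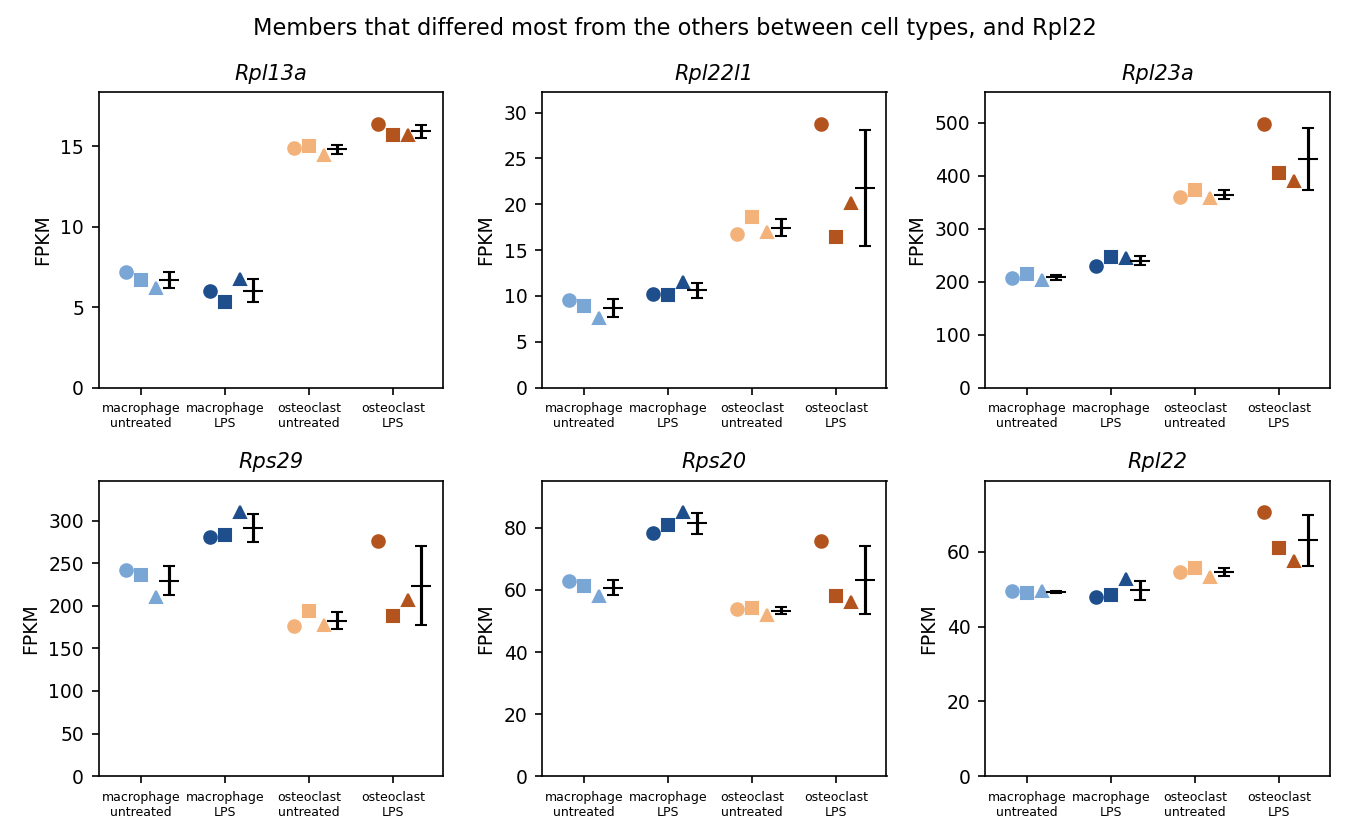
FPKM of 6 genes in each library (circle, square and triangle for replicates 1, 2 and 3) with the mean and SD of each group of 3 in black. Rpl13a, Rpl22l1 and Rpl23a are higher in all 6 osteoclast libraries than in all 6 macrophage libraries, Rps29 and Rps20 are lower in untreated osteoclasts than in untreated macrophages, and Rpl22 is highest in the first LPS-treated osteoclast library.

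The TOP-like start was set beside these differences as a description. In macrophages given LPS the median log2 difference was 0.27 for the 37 members with a run within 10 bases and 0.26 for the 24 without. In untreated osteoclasts against macrophages it was 0.19 and 0.32. Rpl4, Rps3 and Rplp0, which count among the 24, are among those that rose. The stretch of Rpl4 printed above does hold a pyrimidine run, which begins more than 10 bases before its RefSeq start.

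Genes around the ribosome were taken from lists chosen for this tissue, each read on the deposited scale unless TPM is named. The shares of all genes beside these counts are those of the members: 36.8% higher and 33.1% lower with LPS in macrophages, 11.1% and 6.59% in osteoclasts, and 38.8% and 39% between untreated cell types. Their TPM counterparts are 16% and 70.1% with LPS in macrophages and 24.5% and 57.1% between untreated cell types. Of 23 other genes known to carry a TOP tract, mostly elongation factors and RNA-binding proteins, 18 rose and 1 fell with LPS in macrophages, with a median of 0.27 beside the members' 0.26. Among them Pabpc1, the poly(A)-binding protein, rose by 0.87 ± 0.04, while Eif4b fell, at -0.43 ± 0.04 (SE; limma adjusted p = 3.57e-09 and 1.35e-06). After quantile normalization the difference of Pabpc1 was -0.0113 and was not called. In TPM, 1 of the 23 rose and 20 fell. In osteoclasts given LPS 0 of the 23 were called in either direction by limma, and voom called 3 higher, beside 12.9% of all genes. At an unadjusted p under 0.05, 5 were higher and 0 lower, with no share of all genes given at that threshold. In untreated osteoclasts 19 were higher and 2 lower than in macrophages, with Vim, an intermediate filament protein, at 2.36 ± 0.04 and Nap1l1, a histone chaperone, at -1.27 ± 0.07 (SE; limma adjusted p = 4.34e-13 and 4.75e-09). Rescaled to TPM, 8 were higher and 8 lower, with a median of -0.0117.

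Some regulators of ribosomal protein messages had larger differences than any member. Larp1, which binds the TOP tract, had 27.6, 27.2 and 27.5 FPKM in untreated macrophages and 121, 113 and 119 FPKM with LPS, a log2 difference of 2.06 ± 0.05 (SE; limma adjusted p = 3.56e-12). In osteoclasts it had 24.6, 25.6 and 26.3 FPKM untreated and 28.9, 29.7 and 32.8 FPKM with LPS. Myc, a transcription factor known to raise ribosomal protein and assembly genes, went from 22.8, 25.2 and 22.9 FPKM to 1.3, 1.9 and 2.25 FPKM in macrophages given LPS, a log2 difference of -3.14 ± 0.11 (SE; limma adjusted p = 1.11e-10). Mxd1, an antagonist of Myc, went from 0.555, 0.535 and 0.641 FPKM to 22.8, 21.5 and 24.1 FPKM, a log2 difference of 3.91 ± 0.07 (SE; limma adjusted p = 6.78e-13). In osteoclasts Mxd1 rose by 0.42 ± 0.07 with LPS (SE; limma adjusted p = 0.00205). Over the 19 regulators measured, 6 rose and 8 fell with LPS in macrophages, and 3 rose and 1 fell in osteoclasts. In TPM, 4 rose and 14 fell in macrophages, with a median of -0.66. Untreated osteoclasts had more Eif4ebp1, a translation repressor controlled by mTORC1, by 2.32 ± 0.08, and more Pdcd4, an inhibitor of the helicase eIF4A, by 1.75 ± 0.07 (SE; limma adjusted p = 6.15e-11 and 3.43e-10).

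Genes of ribosome assembly were divided. Of 54, 27 rose and 14 fell with LPS in macrophages, while on the TPM scale 7 rose and 40 fell, with a median of -0.40. Sbds, which readies the large subunit for joining, rose by 2.61 ± 0.04, and Imp3, a part of the machinery that cleaves the ribosomal RNA precursor, was lower, at -1.21 ± 0.06 (SE; limma adjusted p = 1.95e-13 and 1.73e-09). With LPS in osteoclasts 20 rose and 0 fell, led by Rcl1, another precursor-processing protein, at 0.67 ± 0.06 (SE; limma adjusted p = 1.39e-05). Without the first LPS-treated osteoclast library 15 rose, and no share of all genes is given for that fit. Of 15 genes of RNA polymerase I and its factors, 2 rose and 5 fell with LPS in macrophages, and 3 were higher and 8 lower in untreated osteoclasts. These counts were 0 and 14, and 1 and 13, on the TPM scale. Of 28 initiation factors, 20 rose and 4 fell with LPS in macrophages, with Eif4g2 at 1.09 ± 0.03 (SE; limma adjusted p = 3.62e-11). Rescaled to TPM, 3 rose and 23 fell, with a median of -0.32. In osteoclasts 7 initiation factors rose and 0 fell, with Eif2b3 at 0.28 ± 0.05 (SE; limma adjusted p = 0.00396). Without the first LPS-treated osteoclast library 2 rose, again with no share of all genes given.

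The genes of the mitochondrial ribosome, which translates the few messages of the mitochondrial genome, were mostly higher in osteoclasts. Of 82 measured, 79 were higher and 1 lower in untreated osteoclasts, with a median log2 difference of 0.80 against 0.20 for the cytosolic members. Mrps6 was 2.46 ± 0.08 and Mrpl41 2.21 ± 0.10 higher (SE; limma adjusted p = 4.85e-11 and 1.07e-09). On the TPM scale 62 were higher and 6 lower, with a median of 0.45 against -0.20 for the cytosolic members. With LPS in macrophages 15 mitochondrial ribosome genes rose and 29 fell on the deposited scale, with a median of -0.05, and 2 rose and 80 fell on the TPM scale, with a median of -0.59. On the deposited scale they were led by Mrpl52 at 1.34 ± 0.08 and Mrpl49 at -0.99 ± 0.06 (SE; limma adjusted p = 9.63e-09 and 2.23e-08). The difference between both sets of genes was not tested, and the greater share of mitochondrial reads in osteoclasts is given above.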

How the data were processed

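Gene-level FPKM for 12 libraries of mouse macrophages and osteoclasts were taken as the authors deposited them. The submitters' processing notes name fastp, STAR, featureCounts, DESeq2 and the build mm10, with no roles or versions; the treatment of strand and of reads that fit several places is not given in the sources used here. Of 25854 genes above 0, 25755 (99.6%) gave whole reads (tolerance 0.02 reads) after multiplication by merged exon length (GENCODE M21; for 740 genes a length found from the values) and a library constant. Those constants matched median-of-ratios size factors, so the deposited FPKM are scaled to the typical gene. Depth was 15651736 to 20281414 assigned reads per library; members counted from 16 reads up, and the number of libraries limits the precision. The table has no column outside the 12 samples.

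Members and gene lists were chosen with earlier results of these data known, and no independent support is claimed for them. limma 3.58.1 (R 4.3.3) was fitted to log2(FPKM + 1) over the 11335 genes that reached 1 FPKM in 3 or more libraries, with 4 group means, a variance trend and two-sided Benjamini-Hochberg adjusted p over all genes, called under 0.05. A log2 difference of FPKM + 1 understates the change of low genes. The code was tested on simulated data. Members were named with values by role, or as one of the 3 at either end of the called differences in a comparison, or of the 3 at either end of mean FPKM; from each list up to 4 genes at either end were named. Other values, such as those of Larp1, Myc and Mxd1 in osteoclasts, Fau and members described relative to the median member, were chosen after they were seen. Some genes that the rule names are not reported here. Alternatives were pseudocount, filter, genes and samples in the fit, TPM and quantile scaling, a length trend, a replicate block, voom, and each library left out; centring on the median member was added after seeing the data. Promoter windows came from RefSeq (GRCm38.p6), where 20 members had no entry. No batch is given in the labels. Intervals cover counting error only. Python 3.11.15, scipy 1.17.1 and matplotlib 3.10.9 were used.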

Additional observations from a re-analysis of the deposited data

Results flagged for a closer look

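For 5 genes the effect of LPS differed between osteoclasts and macrophages by a direct test of that difference, given here as the osteoclast minus the macrophage effect on the deposited log2 scale (limma adjusted p under 0.05). Rps9 had a difference of -0.31 and Rpl4 of -0.19; both turned positive after rescaling to TPM (0.27 and 0.39) and after quantile normalization (0.44 and 0.53). Larp1, which binds the TOP tract of ribosomal protein messages, had a difference of -1.81, and Mxd1, an antagonist of Myc, of -3.50. Myc had a difference of 3.31, with a fall in macrophages (-3.14) and levels of 9.1 to 9.93 FPKM in untreated and 9.64 to 11.7 FPKM in LPS-treated osteoclasts. The cause of these differences was not tested.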

How the results depend on the processing

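Counts below are members called higher and lower of 81, and medians are of their log2 differences. Shares of all genes are given above for some settings, and the remaining counts have no such share beside them. Rescaled to TPM, LPS in macrophages gave 0 and 79 (median -0.38), with Rps9 at -0.20, Rps20 at -0.22, Rpl14 at -0.48, Rplp0 at -0.38, Rps6 at -0.37 and Rpl4 at -0.39. LPS in osteoclasts gave 1 higher. Untreated osteoclasts against macrophages gave 8 and 48 (median -0.20), with Rpl9 at -0.23, Rpl7a at -0.22 and Rpl22 at -0.27. With LPS that comparison gave 65 higher (median 0.32). The difference of LPS effects gave 80 and 0 (median 0.50), with Rps9 at 0.27 and Rpl4 at 0.39. After quantile normalization the values in the same order were 1 and 78 (median -0.56), with Rps9 at -0.41, Rps20 at -0.34, Rpl14 at -0.66, Rplp0 at -0.72, Rps6 at -0.60, Rpl4 at -0.55 and Pabpc1 at -0.0113; 0 higher in osteoclasts, with Rpl4 at -0.0185; 10 and 39 between untreated cell types (median -0.13), with Rpl9 at -0.16, Rpl7a at -0.19, Rplp0 at -0.13 and Rpl22 at -0.0839. They were 77 and 0 with LPS (median 0.51), and 77 and 0 for the difference of effects (median 0.63), with Rps9 at 0.44 and Rpl4 at 0.53. The medians of all genes there were 0.0912 and 0.0866, and 54.5% and 59.9% of all genes called were above 0. Both scalings use other library totals by construction.

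With the length trend removed, LPS gave 5 and 5 in macrophages (median 0.0487; Rpl14 -0.0547) and 0 higher in osteoclasts (Rplp0 -0.0244, Rpl4 -0.0388). The untreated cell types had a median of 0.17 against 0.0205 for all genes. The difference of effects gave 6 and 1 (median 0.0332 against 0.0927 for all genes). Centred on the median member, where medians near 0 follow from the construction, LPS gave 1 and 9 in macrophages (median -0.0101; Rpl14 -0.11, Rplp0 -0.0046, Rpl4 -0.0112) and 0 higher in osteoclasts (median -0.0053; Rplp0 -0.0939, Rpl4 -0.11). The cell types gave 5 lower untreated (median 0.0694) and 5 lower with LPS, and the difference of effects 1 and 0 (median 0.0085).

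The 5 members called higher with LPS in osteoclasts became 17 with a mean of at least 5 FPKM, 18 among protein-coding genes only, 0 with no filter, 0 with only the groups compared, 1 with no variance trend and 42 with voom. With voom 12.9% of all genes were called higher. The other refits have no share of all genes beside them, so their counts do not set the members apart from other genes. In macrophages the 1 lower call became 0 with a mean of at least 5 FPKM. The 1 lower call between untreated cell types became 0 with no filter, 2 with only the groups compared and 2 with voom. The 2 calls below 0 in the difference of effects became 1 with no filter and 6 with voom. Same-numbered libraries of different groups had correlations of deviations from -0.07 to 0.10 over 18 pairs and others from -0.14 to 0.11 over 36. Between untreated and LPS-treated osteoclasts, same-numbered pairs had 0.0289 to 0.0828 and others -0.102 to 0.0413. In macrophages these ranges were -0.0529 to 0.104 and -0.137 to 0.0476. Overlapping ranges of so few pairs cannot settle whether numbers pair samples. A replicate block left 2 of those 5 calls in osteoclasts and moved no other count by over 1.5 times; among the other genes named it ended the call of Rpl14 with LPS in macrophages. Leaving out single libraries gave 0 to 1 lower in macrophages, 0 to 43 higher and 0 to 1 lower in osteoclasts, 0 to 2 lower between untreated and 2 to 14 lower between LPS-treated cell types, and 0 to 2 above and 1 to 43 below 0 in the difference of effects, with its median from -0.19 to -0.0057. The cause of these changes was not tested.

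As a share of nuclear protein-coding FPKM the members took 6.93%, 5.22%, 7.03% and 7.53% in untreated and LPS-treated macrophages and untreated and LPS-treated osteoclasts, and as a share of reads 3.19%, 2.45%, 3.16% and 3.42%. The share of TOP-like starts was 42.6% within 3 and 80.3% within 20 bases.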

Other observations

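Fau encodes a ribosomal protein fused to a ubiquitin-like protein, and its symbol keeps it outside the members. Fau had 368, 369 and 365 FPKM in untreated and 433, 453 and 453 FPKM in LPS-treated macrophages, and 357, 377 and 365 FPKM in untreated and 458, 400 and 386 FPKM in LPS-treated osteoclasts. The first LPS-treated osteoclast library was again its highest.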
